A study of Mus musculus with 8 samples.

Results

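Transcripts of 9 TNF receptor superfamily members, Tnfrsf4, Tnfrsf18, Tnfrsf9, Cd27, Tnfrsf1a, Tnfrsf1b, Tnfrsf25, Tnfrsf14 and Fas, were followed in sorted mouse T cells of a regulatory T cell (Treg) gate. They were chosen by name as the superfamily's receptors known on Tregs, with earlier results of these data known. They are 9 of the 45232 gene names in the deposited table. The study sorted CD4+ CD25+ T cells from C57BL/6 mice, out of visceral adipose tissue or spleen and at least 500 cells a library, and measured their RNA. The 4 groups were KO adipose tissue, WT adipose tissue, KO spleen and WT spleen, with 2 libraries each. KO mice carry the genotype label Id2 CKO and are called Id2-deficient (Id2 keeps E-protein transcription factors from binding DNA), while WT mice carry the label WT. The Cre driver or cell type of the deletion, the age and the sex of the mice, and any pooling of mice are not stated in the labels. SMARTer v4 ultra-low-input chemistry gave the cDNA and a Nextera XT kit the libraries of all 4 groups. Libraries are named by genotype, tissue and experiment number, 2 or 3, as in the label KO adipose 2. The labels do not say whether a group's libraries stem from different mice, so p-values reflect the spread between the deposited libraries, and that spread may be purely technical.

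TNF receptor superfamily members are cell surface proteins that bind trimeric ligands of the TNF family. Most recruit TRAF adaptor proteins and activate NF-kB, and those with a death domain can also signal through TRADD or FADD towards caspase-8. OX40 (Tnfrsf4), GITR (Tnfrsf18), 4-1BB (Tnfrsf9), CD27 and TNFR2 (Tnfrsf1b) act as costimulatory receptors, and Tregs are known for high surface levels of several of them. Tregs of visceral adipose tissue are a resident population known for restraining local inflammation.

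Values are TPM, a share of all transcripts that is scaled by transcript length and can be compared between genes. The deposited TPM keep no read depth, so the depth behind a value is unknown and no counting interval is given. In adipose tissue the KO libraries had 1499 and 1298 TPM of Id2, and the WT libraries 2249 and 3679 TPM. In spleen the KO libraries had 72.1 and 265 TPM, and the WT libraries 274 and 346 TPM. Every KO library was thus below both WT libraries of its tissue, narrowly so in spleen (265 against 274 TPM). Of the 13376 genes tested, 35.1% in adipose tissue and 19.9% in spleen did not overlap between genotypes in either direction. The table does not say which exons the remaining Id2 reads cover. Il2ra, which encodes the sorted surface protein CD25, was at 33.8 TPM or more in every library, with the lowest value in KO adipose 2. Cd4 was at 58.4 TPM or more in every library. Foxp3, whose product defines the Treg lineage, was low in both KO libraries of experiment 2 (7.40 TPM in adipose 2, 8.27 TPM in spleen 2), beside 93.5 to 266 TPM in the other 6 libraries. By Foxp3 alone, these 2 libraries go against the Treg gate. The 12 Treg identity genes, Foxp3 included, summed to 1178 TPM in KO adipose 2, within the range of 897 to 1808 TPM in adipose tissue. In KO spleen 2 their sum was 1722 TPM, the lowest of the spleen libraries (1722 to 2418 TPM). The largest parts of the KO adipose 2 sum were Capg (546 TPM), Ctla4 (267 TPM) and Izumo1r (170 TPM). Of the adipose libraries, KO adipose 2 was lowest in Foxp3, Il2ra, Il2rb, Lrrc32 and Itgae and highest in Ikzf2 and Izumo1r. The other identity genes lay between. The receptors' main contrasts are also given without both libraries low in Foxp3. KO adipose 3 stood apart in another way. Its summed T cell core genes were 3544 TPM, against 7096 to 9754 TPM in the other libraries. Its 11 macrophage and monocyte markers summed to 11200 TPM, against 9.42 to 615 TPM elsewhere. Fibroblast and mesothelial markers summed to 3591 TPM there and 730 TPM in KO adipose 2, and to at most 4.80 TPM in the other 6 libraries. Adipocyte markers summed to 14220 TPM in KO adipose 3, 2083 TPM in WT adipose 3 and at most 28.5 TPM in the other 6. Erythroid markers summed to 24600 and 41290 TPM in KO adipose 2 and 3, and to 37.0 and 2668 TPM in WT adipose 2 and 3. In spleen they summed to 785 and 63220 TPM in KO 2 and 3, and to 10740 and 26960 TPM in WT 2 and 3. In these bulk libraries, fewer cells of a type and less RNA per cell cannot be told apart.

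The start regions of 3 of the genes are printed because Tnfrsf4 and Tnfrsf18 are adjacent protein-coding genes on chromosome 4 that showed different patterns, and because Tnfrsf9, also on chromosome 4, showed the largest tissue difference of the 9. The windows hold 250 bases before and 50 after a RefSeq start site in build GRCm38.p6, all on the plus strand. The expression table used mm9, and its values are not tied to a start site. Capitals mark matches to 3 motifs searched on both strands, with overlaps allowed: the NF-kB-like letters GGG and CC with any 5 bases between them, the E-box letters CAGNTG that E proteins bind, and the AP-1 letters TGANTCA. Of all 32851 RefSeq mouse start windows of the same length, 50.8% held the NF-kB-like letters, 51.4% the E-box and 7.81% the AP-1 letters. All 9 receptors matched a RefSeq window, and Tnfrsf9 has a pair of start sites.
Tnfrsf4: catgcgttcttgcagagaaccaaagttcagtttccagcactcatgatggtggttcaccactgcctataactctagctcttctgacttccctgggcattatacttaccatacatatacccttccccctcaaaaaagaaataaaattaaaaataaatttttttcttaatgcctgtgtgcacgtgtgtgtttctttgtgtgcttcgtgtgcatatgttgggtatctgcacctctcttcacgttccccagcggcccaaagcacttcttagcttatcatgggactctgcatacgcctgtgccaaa
Tnfrsf18: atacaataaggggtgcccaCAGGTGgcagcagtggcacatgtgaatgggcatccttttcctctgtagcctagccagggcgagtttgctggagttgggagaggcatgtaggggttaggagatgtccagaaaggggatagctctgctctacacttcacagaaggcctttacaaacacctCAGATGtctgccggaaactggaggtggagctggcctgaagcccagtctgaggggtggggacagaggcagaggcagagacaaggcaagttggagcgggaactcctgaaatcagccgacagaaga
Tnfrsf9 first start site: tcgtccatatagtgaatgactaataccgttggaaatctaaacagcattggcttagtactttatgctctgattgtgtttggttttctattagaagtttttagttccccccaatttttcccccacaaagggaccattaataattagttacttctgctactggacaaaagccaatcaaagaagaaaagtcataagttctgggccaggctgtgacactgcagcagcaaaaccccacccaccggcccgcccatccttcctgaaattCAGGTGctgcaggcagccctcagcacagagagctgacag
Tnfrsf9 second start site: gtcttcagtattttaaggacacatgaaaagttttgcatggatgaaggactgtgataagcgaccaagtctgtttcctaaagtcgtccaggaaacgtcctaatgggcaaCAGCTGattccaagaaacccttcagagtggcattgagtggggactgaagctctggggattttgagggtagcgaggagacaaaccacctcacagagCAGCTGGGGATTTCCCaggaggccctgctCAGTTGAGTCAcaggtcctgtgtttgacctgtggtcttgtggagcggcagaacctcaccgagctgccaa
The Tnfrsf4 window at chr4:156013445-156013744 held none of the 3 motifs. The Tnfrsf18 window at chr4:156026072-156026371 held 2 E-boxes. The first Tnfrsf9 window at chr4:150919905-150920204 held 1 E-box. The second Tnfrsf9 window at chr4:150927749-150928048 held 3 E-boxes, 2 NF-kB-like matches that overlap each other and of which 1 overlaps an E-box, and 1 AP-1 match that overlaps an E-box. A match describes these letters and is no measured binding site.

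The 9 receptors differed widely in level, and the leading receptor differed by tissue. Tnfrsf18 was the highest of the 9 in each of the 4 adipose libraries, and Tnfrsf4 was the highest in each of the 4 spleen libraries. These genes held 71.7% to 81.6% of the summed TPM of the 9 in adipose tissue and 75.9% to 83.8% in spleen. The summed TPM of the 9 ranged from 1428 to 2895 in adipose tissue and from 3676 to 5027 in spleen, without overlap. Cd27 ranked 3 or 4 of 9 in every library. Tnfrsf9 ranked 4 in every spleen library and 5 to 8 in adipose libraries. Tnfrsf14 was the lowest in 7 of 8 libraries, and Tnfrsf1a was the lowest in WT adipose 3.

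**Figure D1:**
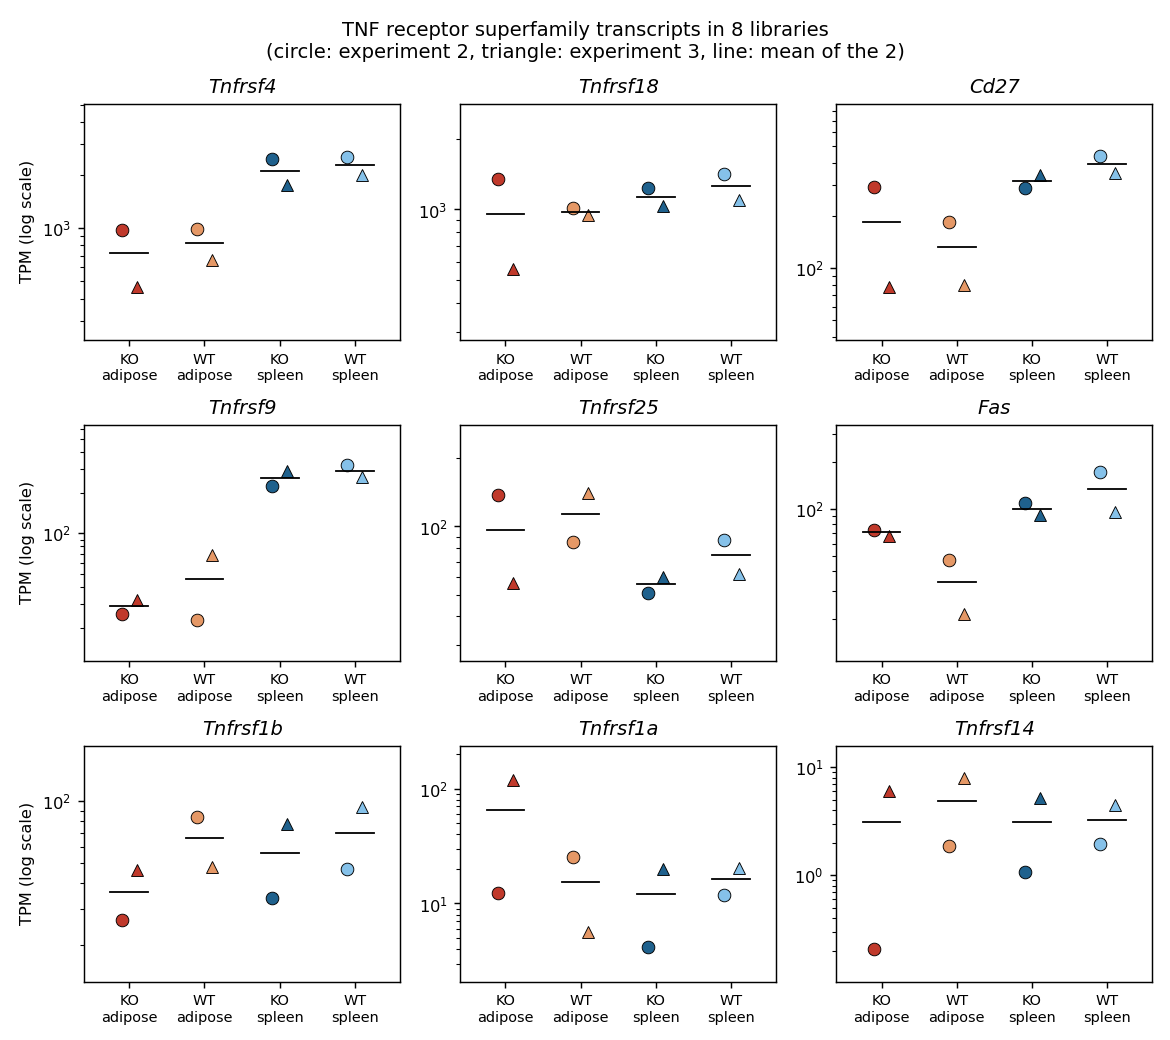
TPM of the 9 receptors on a log axis, 1 panel a gene, with groups ordered KO adipose, WT adipose, KO spleen and WT spleen. Circles are experiment 2, triangles experiment 3 and lines the mean of the 2 libraries; Tnfrsf4, Tnfrsf9 and Fas lie lower in all 4 adipose libraries than in all 4 spleen libraries.

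The main question the tissues pose is how the receptors differ between cells of visceral adipose tissue and of spleen. Averaged over both genotypes, 2 of the 9 receptors were called, Tnfrsf9 and Tnfrsf4, and both were lower in adipose tissue. A gene is called where its limma p is under 0.05 after Benjamini-Hochberg adjustment across the 13376 genes tested. All 9 receptors passed the filter of at least 1 TPM in at least 2 libraries. Over all genes tested 3.06% were called in this contrast, 0.725% as lower and 2.33% as higher in adipose tissue. Fold changes are adipose tissue over spleen of log2(TPM + 1), a transform that makes changes of low genes look smaller. The median fold change of the 9 receptors was -0.36, beside 0.24 for all genes tested.

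Tnfrsf9 encodes 4-1BB (CD137), a receptor induced by T cell activation. It had 25.4 and 32.3 TPM in KO adipose tissue and 22.7 and 69.3 TPM in WT adipose tissue, against 224 and 291 TPM in KO spleen and 321 and 264 TPM in WT spleen. The lowest spleen library thus stood above the highest adipose library, in either genotype. Tnfrsf9 averaged 37.4 ± 21.6 TPM in adipose tissue and 275 ± 41.2 TPM in spleen (SD, n = 4 each). Its log2 fold change was -2.98 (SE 0.35, 95% interval -3.78 to -2.17, limma adjusted p = 0.00733). Without both KO libraries of experiment 2 the fold change was -2.98 (limma adjusted p = 0.0858), in a fit that called 0 of all genes tested. Without WT spleen 2 the adjusted p was 0.057, and without any 1 of the other 7 libraries it was at most 0.047. Within genotypes, Tnfrsf9 was lower in adipose tissue of KO mice by the same test (-3.11, limma adjusted p = 0.0337). With neither KO library of experiment 2 it was -3.13 in KO mice (limma adjusted p = 0.219). In WT mice its fold change was -2.84 with a limma adjusted p of 0.0823. The averaged contrast shares its libraries with both of these. The tissue difference of KO and that of WT mice differed by -0.27 on the log2 scale (95% interval -1.89 to 1.34, limma adjusted p = 1).

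Tnfrsf4 encodes OX40 (CD134), the receptor of OX40 ligand (Tnfsf4). It had 976 and 467 TPM in KO adipose tissue and 988 and 665 TPM in WT adipose tissue, against 2454 and 1756 TPM in KO spleen and 2536 and 2012 TPM in WT spleen. All 4 adipose libraries lay below all 4 spleen libraries, and the genotypes overlapped in adipose tissue and in spleen. The mean was 774 ± 254 TPM in adipose tissue and 2189 ± 369 TPM in spleen (SD, n = 4 each). The log2 fold change was -1.55 (SE 0.31, 95% interval -2.27 to -0.83, limma adjusted p = 0.0424). Of 18 alternative settings all gave a lower level in adipose tissue, and 6 kept the adjusted p under 0.05. Only the fit without KO adipose 2 did so among those without 1 library (adjusted p = 0.0218), and leaving out each of the other 7 gave 0.0557 to 0.168. Without both KO libraries of experiment 2 the fold change was -1.69 (limma adjusted p = 0.0869). In KO mice the fold change was -1.62 (limma adjusted p = 0.167, or 0.0489 with the experiment number as a block), and in WT mice -1.48 (limma adjusted p = 0.261).

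Tnfrsf18 encodes GITR, the product of the gene beside Tnfrsf4. It had 1352 and 558 TPM in KO adipose tissue and 1012 and 943 TPM in WT adipose tissue, against 1234 and 1036 TPM in KO spleen and 1410 and 1098 TPM in WT spleen. The tissues overlapped, with KO adipose 2 close to the highest spleen library and KO adipose 3 the lowest of the 8. The log2 fold change was -0.36 (95% interval -1.08 to 0.35, limma adjusted p = 0.511). The ratio of Tnfrsf4 to Tnfrsf18 TPM within a library was 0.722 and 0.837 in KO adipose tissue and 0.977 and 0.705 in WT adipose tissue. It was 1.99 and 1.70 in KO spleen and 1.80 and 1.83 in WT spleen. This ratio does not depend on how a library is scaled, and it was below 1 in 4 of 4 adipose libraries and above 1 in 4 of 4 spleen libraries, including KO adipose 3 and the pair of libraries low in Foxp3. The ratio was chosen after the values were seen and is given without a test.

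**Figure D2:**
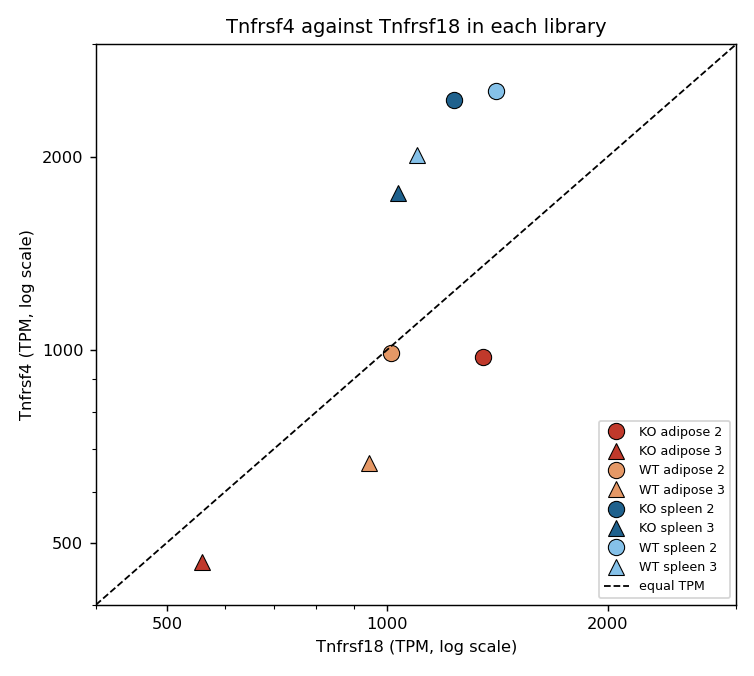
Tnfrsf4 against Tnfrsf18 in each of the 8 libraries, both in TPM on log axes, with a dashed line of equal TPM. The 4 adipose libraries lie on the side of higher Tnfrsf18 (ratios 0.705 to 0.977) and the 4 spleen libraries on the side of higher Tnfrsf4 (ratios 1.70 to 1.99).

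Cd27 encodes the costimulatory receptor of CD70. It had 292 and 77.2 TPM in KO adipose tissue and 184 and 79.6 TPM in WT adipose tissue, against 288 and 340 TPM in KO spleen and 439 and 352 TPM in WT spleen. KO adipose 2 reached the level of KO spleen 2, so the tissues overlapped, while the other 3 adipose libraries were below every spleen library. The log2 fold change was -1.37 (95% interval -2.39 to -0.36, limma adjusted p = 0.126). Without KO adipose 2 it was -1.85, with an adjusted p of 0.0341. Without KO adipose 3 it was -0.90 (limma adjusted p = 0.201), and with neither KO library of experiment 2 it was -1.91 (limma adjusted p = 0.112).

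Fas encodes the death receptor CD95, which binds Fas ligand. It had 74.0 and 67.8 TPM in KO adipose tissue and 47.3 and 21.5 TPM in WT adipose tissue, against 109 and 91.1 TPM in KO spleen and 173 and 95.4 TPM in WT spleen. All 4 adipose libraries were below all 4 spleen libraries, as for Tnfrsf9 and Tnfrsf4. Over all genes tested 4.66% were lower in every adipose library, and 16.3% did not overlap in either direction. The log2 fold change of Fas was -1.23 (95% interval -1.97 to -0.50, limma adjusted p = 0.0807). The adjusted p was 0.036 with the experiment number as a block, 0.0303 with quantile normalization and 0.234 without both KO libraries of experiment 2. The fold change was -0.49 in KO mice (limma adjusted p = 0.702) and -1.97 in WT mice (limma adjusted p = 0.16).

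Tnfrsf25 encodes DR3, a death domain receptor whose ligand is TL1A (Tnfsf15). It had 137 and 56.5 TPM in KO adipose tissue and 85.6 and 141 TPM in WT adipose tissue, against 50.9 and 60.1 TPM in KO spleen and 87.6 and 61.4 TPM in WT spleen. Values in 2 adipose libraries, KO adipose 2 and WT adipose 3, exceeded all others, and the tissues overlapped. The log2 fold change was 0.62 (95% interval -0.15 to 1.39, limma adjusted p = 0.309). 

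Tnfrsf1a and Tnfrsf1b encode the receptors of TNF, TNFR1 with a death domain and TNFR2 without one. Tnfrsf1a had 12.3 and 119 TPM in KO adipose tissue and 25.4 and 5.67 TPM in WT adipose tissue, against 4.16 and 20.0 TPM in KO spleen and 11.9 and 20.5 TPM in WT spleen. A single library, KO adipose 3, was far above the other 7, and those 7 ranged from 4.16 to 25.4 TPM. The library with 119 TPM was also the one whose macrophage markers summed to 11200 TPM, with none of the 11 at 0, and its dendritic cell markers to 5674 TPM against 77.3 to 2038 TPM in the others. The part of other cells in its Tnfrsf1a value was not tested. The log2 fold change between tissues was 0.80 (95% interval -1.03 to 2.64, limma adjusted p = 0.575), and 0.012 without KO adipose 3.

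**Figure D3:**
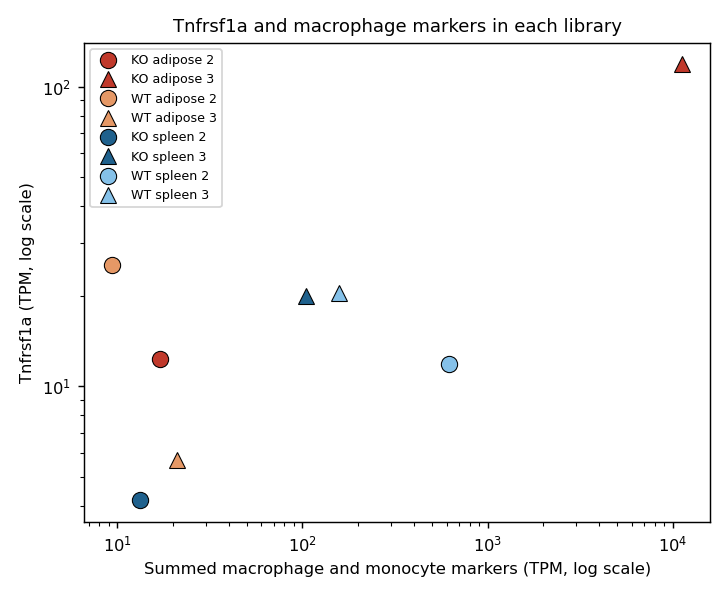
Tnfrsf1a against the summed TPM of 11 macrophage and monocyte markers in each of the 8 libraries, both on log axes. KO adipose 3 lies alone at 119 TPM and 11200 TPM, and the other 7 libraries lie between 4.16 and 25.4 TPM of Tnfrsf1a.

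Tnfrsf1b had 26.4 and 46.1 TPM in KO adipose tissue and 84.2 and 47.7 TPM in WT adipose tissue, against 33.9 and 77.8 TPM in KO spleen and 47.0 and 93.6 TPM in WT spleen. Its ranges overlapped between the tissues (log2 fold change -0.31, 95% interval -1.21 to 0.59, limma adjusted p = 0.674). Tnfrsf14 encodes HVEM, a receptor of LIGHT (Tnfsf14) and a partner of BTLA. It had 0.208 and 5.98 TPM in KO adipose tissue and 1.86 and 7.92 TPM in WT adipose tissue, against 1.08 and 5.16 TPM in KO spleen and 1.95 and 4.50 TPM in WT spleen. These low values overlapped in all 4 groups (log2 fold change between tissues 0.013, 95% interval -1.61 to 1.64, limma adjusted p = 0.993).

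Within one genotype, 1 of 9 receptors was called in KO mice, Tnfrsf9, where 1.08% of all genes tested were. In WT mice limma called 0 of 9, where 0.164% of all genes were, and 4 of 9 had an unadjusted p under 0.05, all lower in adipose tissue, beside 13% of all genes in either direction. Tnfrsf9, Tnfrsf4 and Fas were below spleen in both adipose libraries of either genotype, and Tnfrsf18 and Cd27 were so in WT mice. That made 3 of 9 receptors in KO and 5 of 9 in WT mice, beside 14.6% and 15.1% of all genes that were lower without overlap. Ordered by group means, Tnfrsf4 and Tnfrsf9 ran from KO adipose up to WT adipose, KO spleen and WT spleen. Only the step from WT adipose to KO spleen separated neighbouring groups without overlap. For Fas the order began with WT adipose, then KO adipose, KO spleen and WT spleen, and only KO spleen and WT spleen overlapped.

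The genotype comparison asks what loss of Id2 does to the receptors in each tissue. In adipose tissue, limma called 0 of 9 receptors in KO against WT, where 0.284% of all genes tested were called, and 1 of 9 had an unadjusted p under 0.05. The background of that unadjusted rule was 6.97%. The gene was Fas, with 74.0 and 67.8 TPM in the KO libraries and 47.3 and 21.5 TPM in the WT libraries. Both KO libraries were above both WT libraries, and the log2 fold change was 1.12 (95% interval 0.087 to 2.16, limma adjusted p = 0.651). Without KO adipose 3 it was 1.19 and without KO adipose 2 it was 1.06. Without WT adipose 3 it was 0.57. The fibroblast and mesothelial markers were also higher in both KO adipose libraries, at 730 and 3591 TPM against 0.329 and 4.80 TPM in WT. The part of other cells in the Fas values was not tested.

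Tnfrsf1b was lower in both KO than in both WT adipose libraries, with 26.4 and 46.1 TPM beside 84.2 and 47.7 TPM. Its log2 fold change was -0.84 (95% interval -2.12 to 0.43, limma adjusted p = 0.768). Groups of 2 that do not overlap were common, since 35.1% of all genes tested were so separated. The fold change of Tnfrsf1a was 1.59 (95% interval -1.0 to 4.18, limma adjusted p = 0.783), and 0.0035 without KO adipose 3. For Tnfrsf4 it was -0.26 (95% interval -1.28 to 0.75), for Tnfrsf9 -0.46 (95% interval -1.60 to 0.68) and for Tnfrsf18 -0.17 (95% interval -1.18 to 0.84), beside a median of -0.27 over all genes tested. For Tnfrsf4, Tnfrsf9 and Tnfrsf18 these intervals leave room for a decrease in KO by more than 1 on the log2 scale. None of them reaches an increase of that size. Cd27 had 0.31, Tnfrsf25 -0.32 and Tnfrsf14 -0.80.

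Without both KO libraries of experiment 2, KO adipose tissue is represented by KO adipose 3 alone, the library rich in macrophage markers. WT adipose tissue keeps both experiments, so that fit mixes the genotype with the difference between experiments. The log2 fold changes against WT adipose tissue were then 3.17 for Tnfrsf1a, -0.81 for Tnfrsf18, -0.80 for Tnfrsf4, -0.95 for Tnfrsf25, -0.45 for Tnfrsf1b and -0.30 for Tnfrsf9. Cd27 and Tnfrsf14 changed sign, to -0.64 and 0.47. Fas had 1.06. By limma 0 of 9 receptors were called in that fit, with adjusted p-values of 0.279 to 0.897.

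In spleen, limma called 0 of 9 receptors in KO against WT, where 0% of all genes tested were called, and 0 of 9 had an unadjusted p under 0.05, beside 0.478% of all genes. All 9 fold changes were below 0, as were 63.5% of all genes tested. The median of the 9 was -0.33 beside -0.12 for all genes tested, and the range was -0.68 for Tnfrsf1a to -0.12 for Tnfrsf4. Tnfrsf25 had 50.9 and 60.1 TPM in KO spleen, against 87.6 and 61.4 TPM in WT spleen. Cd27 had 288 and 340 TPM in KO spleen, against 439 and 352 TPM in WT spleen. For these 2 receptors the KO and WT libraries did not overlap, as for 19.9% of all genes tested, and their log2 fold changes were -0.40 and -0.33. Without both KO libraries of experiment 2, 6 of 9 receptors were below 0, as were 40.7% of all genes tested. Tnfrsf1a, Tnfrsf1b and Tnfrsf14 then had 0.34, 0.23 and 0.61. That fit sets KO spleen of experiment 3 against WT spleen of both experiments, so it mixes genotype with experiment. Within WT spleen, experiment 3 was above experiment 2 by 0.74, 0.98 and 0.90 on the log2 scale for these receptors.

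**Figure D4:**
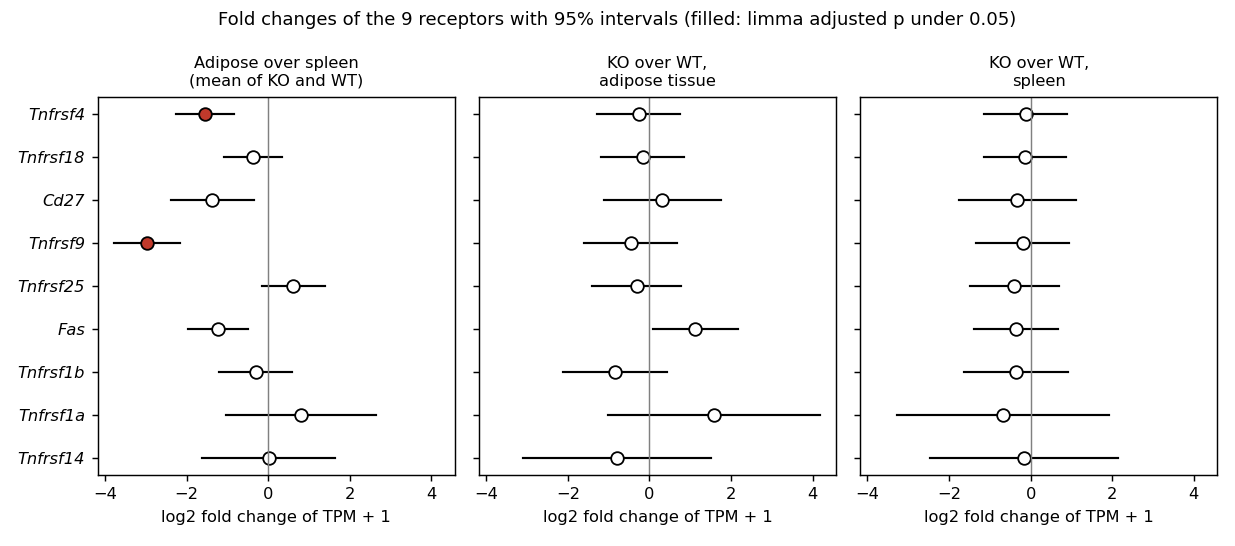
Log2 fold changes of TPM + 1 with 95% intervals for the 9 receptors, in 3 panels: adipose tissue over spleen averaged over KO and WT, KO over WT in adipose tissue, and KO over WT in spleen. Filled points have a limma adjusted p under 0.05; only Tnfrsf9 and Tnfrsf4 in the tissue panel are filled, and 8 of 9 intervals in KO over WT in adipose tissue include 0, all but that of Fas.

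The difference between the genotype effects of the tissues was tested as an interaction. Limma called 0 of 9 receptors, where 0.0299% of all genes were called, and 1 of 9 had an unadjusted p under 0.05, as did 3.06% of all genes. This was Fas, with a log2 difference of 1.48 (95% interval 0.020 to 2.95, limma adjusted p = 1). KO over WT averaged over the tissues gave 0 called of 9 by limma, where 0% of all genes were called, and 0 of 9 at an unadjusted p under 0.05, beside 3.76% of all genes.

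Among the 10 tested of 11 ligands and partners of the 9 receptors, 1 was called between tissues, where 3.06% of all genes were, and it was higher in adipose tissue. An unadjusted p under 0.05 was reached by 7 of 10, of which 4 were higher and 3 lower in adipose tissue, beside 22.6% of all genes. Tnfsf14, which encodes LIGHT, the ligand of HVEM and of the lymphotoxin beta receptor, had 63.3 and 27.6 TPM in KO adipose tissue and 28.2 and 112 TPM in WT adipose tissue. It had 12.9 and 8.5 TPM in KO spleen and 6.28 and 4.51 TPM in WT spleen. All 4 adipose libraries were above all 4 spleen libraries (log2 fold change 2.54, SE 0.49, limma adjusted p = 0.0367), and 6 of 18 alternative settings kept the call. Tnfsf9, the ligand of 4-1BB, had 64.7 and 52.4 TPM in KO adipose tissue and 27.9 and 40.8 TPM in WT adipose tissue, against 40.1 and 19.7 TPM in KO spleen and 18.1 and 11.5 TPM in WT spleen. Its fold change was 1.09 (limma adjusted p = 0.109), and that of Tnf, the ligand of TNFR1 and TNFR2, was 0.98 (limma adjusted p = 0.122). Ligand transcripts of other receptors were low in these cells: Tnfsf4 was at most 3.01 TPM, Tnfsf18 at most 4.78 TPM and Tnfsf15 at most 1.77 TPM. The most abundant gene of the list was Ltb, a lymphotoxin subunit, at 194 to 861 TPM in adipose tissue and 696 to 1762 TPM in spleen.

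Of 13 tested genes for NF-kB subunits and their feedback inhibitors, 2 were called between tissues, and both were higher in adipose tissue. Tnfaip3, which encodes the deubiquitinase A20, an inhibitor of signalling from TNF receptors to NF-kB, had 74.5 and 109 TPM in KO adipose tissue and 188 and 242 TPM in WT adipose tissue. It had 9.19 and 11.9 TPM in KO spleen and 5.97 and 17.2 TPM in WT spleen. Its adipose libraries were all far above its spleen libraries (log2 fold change 3.62, SE 0.35, limma adjusted p = 0.00435). Leaving out both KO libraries of experiment 2 gave an adjusted p of 0.0705. Nfkbiz, which encodes a nuclear IkB protein, had 52.9 and 107 TPM in KO adipose tissue and 94.3 and 317 TPM in WT adipose tissue, against 12.6 and 24.8 TPM in KO spleen and 17.7 and 34.8 TPM in WT spleen. Its log2 fold change was 2.39 (limma adjusted p = 0.0394), and 6 of 18 alternative settings kept the call.

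Rel, the NF-kB subunit c-Rel, had a log2 fold change of -1.92 (limma adjusted p = 0.0574, or 0.0374 with the experiment number as a block). Nfkbia, the most abundant gene of the list, was at 729 to 1549 TPM in adipose tissue and 732 to 1157 TPM in spleen. Tnfaip3 was also called within each genotype, with a log2 fold change of 2.99 in KO mice (limma adjusted p = 0.0385) and 4.25 in WT mice (limma adjusted p = 0.0216). The direction held in 19 of 19 alternative settings of either contrast, while the call held in 5 of them in KO mice and in 6 of them in WT mice. In WT mice it was lost without any 1 of the 8 libraries (adjusted p = 0.0532 to 0.257). In KO mice it was kept without KO adipose 2 (0.0416) and lost without any 1 of the other 7 (0.0539 to 0.316). The count of 2 of 13 is read beside the 3.06% called over all genes tested, and the list's median of 0.28 lay near that of all genes, 0.24.

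Of 26 tested adaptors and kinases, limma called 0 between tissues, and 5 had an unadjusted p under 0.05, all higher in adipose tissue, beside 22.6% of all genes in either direction. The smallest p-values were those of Ripk1, Ripk3 and Mlkl, which encode kinases and the effector of necroptosis, with log2 fold changes of 1.23, 1.0 and 1.99 (limma adjusted p = 0.107, 0.12 and 0.123). With the experiment number as a block the adjusted p of Mlkl was 0.0472. Of 13 tested among 19 other receptors of the superfamily, limma called 0, and 4 had an unadjusted p under 0.05. Ltbr, the lymphotoxin beta receptor, had a fold change of 2.31 (limma adjusted p = 0.107), with 31.1 TPM in KO adipose 3, the library rich in macrophage markers, and at most 2.74 TPM in the other 7. Tnfrsf11a, which encodes RANK, had 1.87 (limma adjusted p = 0.113) and Tnfrsf13c, the BAFF receptor of B cells, had -2.14 (limma adjusted p = 0.14, or 0.0472 with the experiment number as a block). The 8 B cell markers summed to 27.3 to 56.1 TPM in adipose tissue and to 82.8 to 441 TPM in spleen, and their part in the Tnfrsf13c value was not tested.

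**Figure D5:**
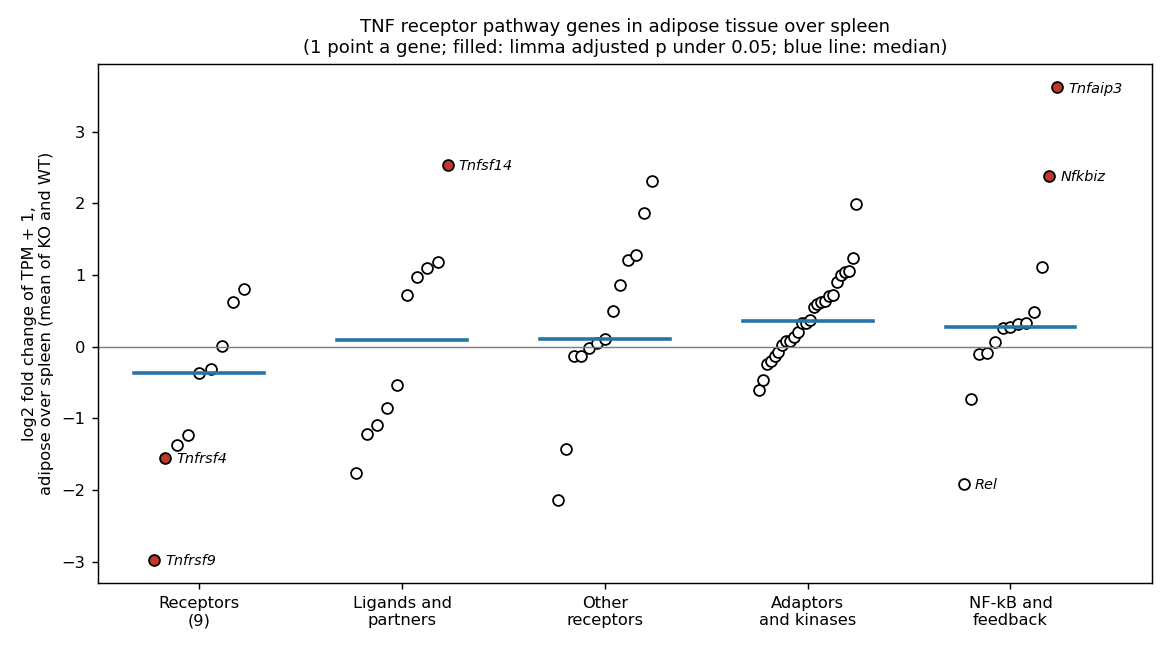
Log2 fold changes of TPM + 1, adipose tissue over spleen averaged over KO and WT, for the 9 receptors and the tested genes of 4 pathway lists, 1 point a gene with the median of each list in blue. Filled points have a limma adjusted p under 0.05: Tnfrsf9 and Tnfrsf4 lie below 0, and Tnfsf14, Nfkbiz and Tnfaip3 lie above 0.

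For KO against WT in adipose tissue, limma called 0 genes of each of the 4 pathway lists, where 0.284% of all genes were called. Of the ligands 1 of 10 had an unadjusted p under 0.05, of the other receptors 1 of 13, of the adaptors 0 of 26 and of the NF-kB genes 1 of 13, shares to be read beside 6.97% of all genes. These were Lta, a lymphotoxin subunit (-1.47, limma adjusted p = 0.717), Tnfrsf12a, the receptor of TWEAK (2.47, limma adjusted p = 0.358), and Tnfaip3 (-1.23, limma adjusted p = 0.651). Tnfrsf12a had 63.2 and 39.3 TPM in the KO libraries and 13.4 and 4.84 TPM in the WT libraries, and the fibroblast and mesothelial markers were also higher in both KO libraries, at 730 and 3591 TPM against 0.329 and 4.80 TPM. Their part in the Tnfrsf12a value was not tested. The 13 NF-kB genes all had fold changes below 0, with a median of -0.82 beside -0.27 for all genes tested, of which 67.7% were below 0. The T cell core genes were below 0 too, 11 of 11 with a median of -0.58, and their part in the NF-kB values was not tested. Scaled to the T cell core genes, 8 of 13 NF-kB genes were below 0, with a median of -0.38 beside 0.13 for all genes tested. Without KO adipose 3, KO adipose tissue is represented by KO adipose 2 alone, a library low in Foxp3. In that fit 10 of 13 NF-kB genes were below 0 (median -1.0), beside 67.7% of all genes tested (median -0.40) and 5 of the 11 T cell core genes.

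Genes with the most similar patterns were named by the smallest root mean square difference of centred log2(TPM + 1) values over the 8 libraries, among genes with a mean of at least 10 TPM. For Tnfrsf4 these were Bmyc (0.17), Batf (0.191) and Mgst2 (0.224). Batf, an AP-1 family transcription factor, had 253 and 128 TPM in KO adipose tissue and 210 and 145 TPM in WT adipose tissue, against 794 and 397 TPM in KO spleen and 577 and 475 TPM in WT spleen. For Tnfrsf9 the closest genes were Art2b (0.697), Insl3 (0.717) and Chchd10 (0.74), a much looser likeness. For Tnfrsf18 they were Pigx (0.12), Thap7 (0.132) and Mtf2 (0.135), and for Cd27 they were Pglyrp1 (0.142), Igsf23 (0.206) and Phf11c (0.254). Tnfrsf1b was closest to Prkch (0.127), Ikbke (0.17) and Irak1 (0.172), Tnfrsf25 to Stap1 (0.159), Galk2 (0.175) and Skap1 (0.181), and Fas to Cd86 (0.324), Med7 (0.342) and Gemin6 (0.36). Tnfrsf1a was closest to Rab31 (0.464), Scpep1 (0.501) and Pde2a (0.54), which also had their highest value in KO adipose 3. Among the receptors the closest pair was Tnfrsf4 and Cd27 (0.395). These are descriptions over 8 libraries that share tissue and experiment, with no test.

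Experiments 2 and 3 differed in the same direction in 4 of 4 groups for 4 of the 9 receptors, and for 30.7% of all genes tested. Tnfrsf14 was higher in experiment 3, by 2.53 on the log2 scale in KO adipose tissue, 1.64 in WT adipose tissue, 1.57 in KO spleen and 0.90 in WT spleen. Tnfrsf4, Tnfrsf18 and Fas were lower in experiment 3 in every group. In the fit with the experiment number as a block, the experiment difference was 1.66 for Tnfrsf14 (limma adjusted p = 0.189) and -0.61 for Tnfrsf4 (limma adjusted p = 0.217). Limma called 0 of 9 receptors by experiment, and 3 of 9 had an unadjusted p under 0.05, while 0.00748% of all genes tested were called and 19.3% had an unadjusted p under 0.05.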

How the data were processed

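The authors deposited 1 table of TPM values with a column for each of the 8 libraries. The unit was identified from the values, since each column sums to 1000000. The build is mm9 (per the submitters' processing notes). No aligner, counter or annotation is named in the labels. TPM keep no read depth, so the precision that depth gives is unknown. Some 27 names appear as spreadsheet dates and were kept unnamed. Groups follow the sample titles.

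The 13376 genes that reached 1 TPM in 2 or more of the 8 libraries were fitted with limma 3.58.1 in R 4.3.3 on log2(TPM + 1), with a variance trend, 4 group means and 4 residual degrees of freedom. The fit was tested on simulated data that had 1 spread per gene for all groups and no difference between experiments. That test therefore cannot show how the calls hold in these libraries. Benjamini-Hochberg adjustment covered all genes tested in a contrast, with a threshold of 0.05. The fit shares 1 spread per gene among the groups, although library pairs differed unequally (log2 SD 1.49 in KO adipose tissue, 1.07 in WT adipose tissue, 0.838 in KO spleen and 0.696 in WT spleen).

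The columns call the library numbers experiments. Differences between experiments 3 and 2 correlated between groups across genes (r = 0.128 to 0.382 over 6 pairs of groups), so the number was taken as a possible pairing and used as a block in an alternative fit. Other alternatives changed the pseudocount (0.1 or 5), the filter (none or 5 TPM), the normalization, the trend, the weights and the libraries; where 1 library of a group was left, it was assumed to vary like the other groups. Scaling to T cell core genes was added after seeing the data. The receptors and gene lists were chosen with earlier results of these data known. Named are the 9 receptors, label checks and, per pathway list, called genes, up to 3 of smallest p and the most abundant. The low Tnfsf4, Tnfsf18 and Tnfsf15 values were picked after being seen.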

Additional observations from a re-analysis of the deposited data

Results flagged for a closer look

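Siva1, which encodes a protein that binds the CD27 tail and belongs to the adaptor list, had opposite genotype differences in the 2 tissues. In adipose tissue it had 105 and 154 TPM in the KO libraries and 187 and 218 TPM in the WT libraries. In spleen it had 244 and 176 TPM in the KO libraries and 156 and 175 TPM in the WT libraries. Both KO libraries were lower in adipose tissue and both were higher in spleen. Over all genes tested, 35.1% in adipose tissue and 19.9% in spleen did not overlap between genotypes in either direction. In adipose tissue 15 of the 26 adaptors were lower in KO without overlap. The gap in spleen was narrow, with 175.9 TPM in KO spleen 3 and 175.0 TPM in WT spleen 3. The genotype effect in adipose tissue minus that in spleen was -0.99 on the log2 scale (95% interval -2.06 to 0.084), with a limma adjusted p of 1, so the difference itself did not pass the test. It was -0.48 without both KO libraries of experiment 2, which are low in Foxp3, and also -0.48 when libraries were scaled to the T cell core genes.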

How the results depend on the processing

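The tissue difference of Tnfrsf9 averaged over genotypes was negative in 18 of 18 alternative settings, from -3.37 to -2.58, and its adjusted p was under 0.05 in 15 of them. With 2 libraries a group and unknown depth, calls depend on single libraries and on the number of genes tested; the cause of each change was not tested. For adipose tissue against spleen averaged over genotypes, 2 receptors were called; this became 1 with a pseudocount of 5, with no trend or scaled to the T cell core genes, and 0 with no filter or without both KO libraries of experiment 2, and it ranged from 0 to 3 without 1 library. In KO mice the count of 1 became 0 with no filter, no trend, library quality weights, without both KO libraries of experiment 2, scaled to the T cell core genes or with only the libraries compared, and ranged from 0 to 1 without 1 library. In WT mice library quality weights gave 1 in place of 0. With the replicate block the count was 2 in KO mice and 3 averaged over genotypes; over all genes it called 236 in place of 144 in KO mice, 78 in place of 22 in WT mice and 885 in place of 409 averaged. It changed no call of a receptor other than those given above. Over all settings the calls among all genes ranged from 0 to 911 for the averaged tissue contrast (409), 0 to 663 in KO (144), 0 to 219 in WT (22), 0 to 343 for KO against WT in adipose tissue (38), 0 to 177 for the interaction (4) and 0 to 125 for KO against WT averaged (0).

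Scaling to the T cell core genes moved the median of all genes to 0.13 in place of -0.27 for KO against WT in adipose tissue, to 0.70 in place of 0.16 for tissues in KO and to 0.54 in place of 0.24 averaged. It turned the fold change of Tnfrsf4 to 0.19, of Tnfrsf18 to 0.29 and of Tnfrsf25 to 0.13 between genotypes in adipose tissue. Between tissues in KO it turned Tnfrsf18 to 0.21, Fas to 0.10, Tnfrsf1b to 0.0405 and Tnfrsf14 to 0.26. There 3 of 9 receptors were below 0 in place of 7, beside 19.1% in place of 41.4% of all genes tested. Between tissues averaged it turned Tnfrsf1b to 0.026. The averaged fold change of Tnfrsf14 was -0.25 with a pseudocount of 0.1, -0.14 with quantile normalization and -0.62 to 0.65 without 1 library. Without 1 library, fold changes for KO against WT in adipose tissue ranged from -0.80 to 0.27 for Tnfrsf4, -1.25 to 0.32 for Tnfrsf9 and -0.81 to 0.47 for Tnfrsf18. In spleen they ranged from -0.36 to 0.12 for Tnfrsf4, -0.32 to 0.042 for Tnfrsf18 and -0.79 to 0.065 for Fas, and between tissues in KO from -1.02 to 0.26 for Tnfrsf18.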
